A study of Homo sapiens with 12 samples.

Results

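The genes described here are 35 germ cell and meiosis genes, out of 57169 genes in the count table, chosen by name from genes that work in germ cells and are kept silent in most body tissues, several of them by a RING1B complex. They fall into 15 genes that belong to the piRNA pathway or carry the family name TDRD, 7 other germ cell genes and 13 genes of the meiotic chromosome. All 35 names were found in the table, each for 1 annotated gene. RNA was sequenced in 12 libraries of xenograft tumours of SK-ES1, a human Ewing sarcoma cell line, 6 of them labelled wild-type, called controls, and 6 labelled as a RING1B knock-down. Information on the host animal and its age, the silencing construct, any control construct and the time of growth is not given in the sources used here. RING1B is the protein made by the gene RNF2. The comparison asks which of the germ line genes were silent, which were expressed, and which differed when RING1B was reduced.

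RING1B is a ubiquitin ligase of Polycomb repressive complexes, which place ubiquitin on histone H2A and hold developmental genes silent. A variant complex that contains PCGF6, MGA, MAX, L3MBTL2 and E2F6 is known to sit at CpG-rich promoters of germ cell genes, where MGA and MAX bind the E-box CACGTG and E2F6 binds GC-rich sites. Promoter DNA methylation is a further known layer of silencing at many of these genes. piRNAs are small RNAs that guide PIWI proteins to transposon transcripts in germ cells, and Tudor domain proteins such as TDRD1 scaffold the granules in which piRNAs are made.

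Total counts were 23859184 to 26678325 per library, so 3 counts, taken as the limit that a count of 0 allows, were worth 0.109 to 0.128 CPM, the counts scaled by each library's total and its TMM factor, which corrects for differences in RNA composition. RNF2 checked the labels: its lowest, median and highest CPM were 37.5, 49.2 and 57.9 in the controls and 12.4, 18.4 and 23.4 in the knock-down libraries. The groups did not overlap, and RNF2 fell by 1.43 on the log2 scale (SE 0.174, edgeR adjusted p = 0.00347). Of 10 Ewing sarcoma markers, 9 averaged at least 1 CPM, and their sum was 1029 to 1260 CPM in controls and 1203 to 1396 CPM in knock-down libraries. PHGDH, at a mean of 538 CPM, was the largest part of this sum. edgeR called 2 of the 9 markers tested, beside 0.297% of all genes it tested. Both were higher in the knock-down: CCK, a peptide hormone gene (10.8 and 51.9 CPM on average), and NPY1R, a neuropeptide Y receptor gene (41.3 and 73.3 CPM). CD99, a defining marker, was listed at 0 in every library. It lies in the pseudoautosomal region and its name stands for 2 annotated copies, and how reads that fit both were counted is not known here, so this 0 is not read as absent expression. Of 12 markers of germ line, stem or testis cells, DAZL, PRM1, PRM2 and TNP1 were at 0 in every library, and 2 averaged at least 1 CPM. The summed level, 23.8 to 51.5 CPM in controls and 26.6 to 43.6 CPM in knock-down libraries, was mostly that of AMH, the anti-Müllerian hormone gene, at a mean of 32.9 CPM, and the list includes DDX4, DAZL and SYCP3, which are among the 35. In bulk tumours, fewer cells with a transcript and less transcript per cell cannot be told apart.

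1 library stood apart. In knock-down replicate 4, 52 genes were above 10 CPM and over 4 times their level in each of the other 11 libraries, against 0 or 1 such gene in any other library, and 15 genes were lower than in every other library by over 4-fold. The fibronectin gene FN1 was at 1806 CPM there and at most 105 CPM elsewhere, and the imprinted gene PEG3 was at 115 CPM there and at most 0.433 CPM elsewhere. RNF2 was low in it, at 12.9 CPM. Summed host leukocyte markers were 25.7 CPM in it, 5.75 to 13.1 CPM in the other knock-down libraries and 6.23 to 21.0 CPM in controls, and fibroblast and pericyte markers were 613 CPM, 296 to 453 CPM and 376 to 591 CPM. LYZ and COL3A1 had the highest means of these lists over the 12 libraries, at 5.43 and 279 CPM. The sums are therefore not read as cell content. Of the 16 germ line genes abundant enough to test, 7 had their lowest value of all 12 libraries in it (BRDT, HORMAD1, PNLDC1, TEX15, TEX14, SYCP1 and SMC1B) and 3 their highest (PIWIL2, TDRD7 and DMC1). The share of all tested genes with an extreme value in this library was not counted, so these numbers cannot be called particular to germ line genes. The part of these differences in the results was not tested, and values without this library are given for the genes it moved most.

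The E-box was found more often before the germ line genes than before genes at large, and the sequences are shown here because the motif is known to be bound by the complex described above. Some of the genes were chosen as known targets of that complex, so this share is not independent evidence of a link. RefSeq start sites on GRCh38.p14 were matched for 30 of the 35 genes, giving 38 windows of 300 bases, from 250 before to 50 after a start. CACGTG, searched on both strands, occurred in 13 of 38 windows (34.2%), belonging to 10 genes, beside 7.26% of all 35116 windows. Windows of the germ line genes were rich in CpG: the median ratio of observed to expected CpG was 0.854 beside 0.579 for all windows, and 92.1% of windows had a ratio of at least 0.6 beside 48.9%. Among windows with at least that ratio, CACGTG occurred in 37.1% for the germ line genes and 10.1% for all. 8 stretches with the E-box in capitals, 5′ to 3′ on the gene's strand, are:
BRDT, chr1:91949311-91949340, plus: gctgggtgtggtCACGTGacaggttcagac
MAEL, chr1:166989057-166989086, plus: ctccaggcctccCACGTGacaatgcctccg
DAZL, chr3:16604927-16604956, minus: tgcctcgccggcCACGTGcaagggccacgg
SLC25A31, chr4:127730294-127730323, plus: gcatccaggagcCACGTGtcaggagtcacg
PNLDC1, chr6:159800165-159800194, plus: ggggaagctgggCACGTGgggcggaggcag
STK31, chr7:23710140-23710169, plus: ggccgtggctgcCACGTGactcccgctaac
TDRD1, chr10:114179210-114179239, plus: aggcggagggaaCACGTGggcacattgagt
TDRD12, chr19:32719730-32719759, plus: cgttgggtggacCACGTGgtctccgacgcc

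SLC25A31, a testis ADP/ATP carrier, held 4 copies of CACGTG in its window, PNLDC1 held 3, and TDRD1 and STK31 held 2 each. The other genes with the motif were TDRD5 and STAG3. The E2F-type sequence GGCGGGAA was found at SYCP1, TDRD9 and SYCP2, in 7.89% of windows beside 3.16% of all. In the 250 bases before the start alone it occurred in 1 window (2.63%) beside 2.72% of all, so the higher share came from matches that reach past the start. Its core GCGGGA, which it contains, occurred in 55.3% of windows beside 26.9% of all, and beside 46.4% of all windows with a CpG ratio of at least 0.6. The T-box sequence AGGTGTGA and the cAMP response element TGACGTCA each occurred in 2.63% of windows, beside 0.980% and 1.85% of all. At the 3 sites of GGCGGGAA, the matching stretches, with the motif in capitals as read on the gene's strand, are:
SYCP1, chr1:114854889-114854912, plus: ggctgagcgatTTCCCGCCttttc
TDRD9, chr14:103928446-103928475, plus: gccgtcgcctgTTCCCGCCgcggagacccg
SYCP2, chr20:59933667-59933696, minus: tggacgggcgcTTCCCGCCttccgccgttc

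Genes with CACGTG occurred among both silent and expressed genes. Of the 10 genes with CACGTG, 3 had enough reads to test (BRDT, PNLDC1 and STAG3), and of the 20 matched genes without it, 8 did. TDRD10 and SMC1B, described below, had no CACGTG in their windows. A match gives the letters only and says nothing of binding in these tumours, and 5 genes, all of them tested for expression, had no window to search (PIWIL2, PIWIL4, TEX14, TEX15 and HORMAD1).

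Most of the germ line genes were silent or nearly so in the tumours. Counts were 0 in every library for 4 genes: MAEL, a piRNA pathway protein, DAZL, a germ cell RNA-binding protein, SPO11, the enzyme that makes meiotic DNA breaks, and DMRT1, a testis transcription factor. Another 8 never exceeded 3 counts in any library: PIWIL1, TDRD1, TDRD5, TDRD6, TDRD9, TEX11, TEX101 and SLC25A31. A further 7 exceeded 3 counts in at least 1 library without passing the filter on low counts: ASZ1, DDX4, TDRD12, MOV10L1, SYCP3, STK31 and HORMAD2. Tested genes were 16 of 35 (45.7%), beside 13284 of 19931 protein-coding genes (66.6%).

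By role, the tested genes were 5 of the 15 piRNA pathway or TDRD genes, 2 of the 7 other germ cell genes and 9 of the 13 meiosis genes. Per kilobase of exon, 8 of them averaged at least 1 RPKM over the 12 libraries: SMC1B at 7.47, SYCP1 at 4.18, TEX14 at 2.76, TEX15 at 2.67, PIWIL2 at 2.27, PNLDC1 at 1.72, TDRD7 at 1.44 and HORMAD1 at 1.36 RPKM. The other 8, MEI1, STAG3, SYCP2, PIWIL4, TDRD10, BRDT, DMC1 and REC8, lay between 0.108 RPKM for MEI1 and 0.677 RPKM for REC8. The median over the 16 was 1.02 RPKM, beside 5.39 RPKM for tested protein-coding genes.

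**Figure D1:**
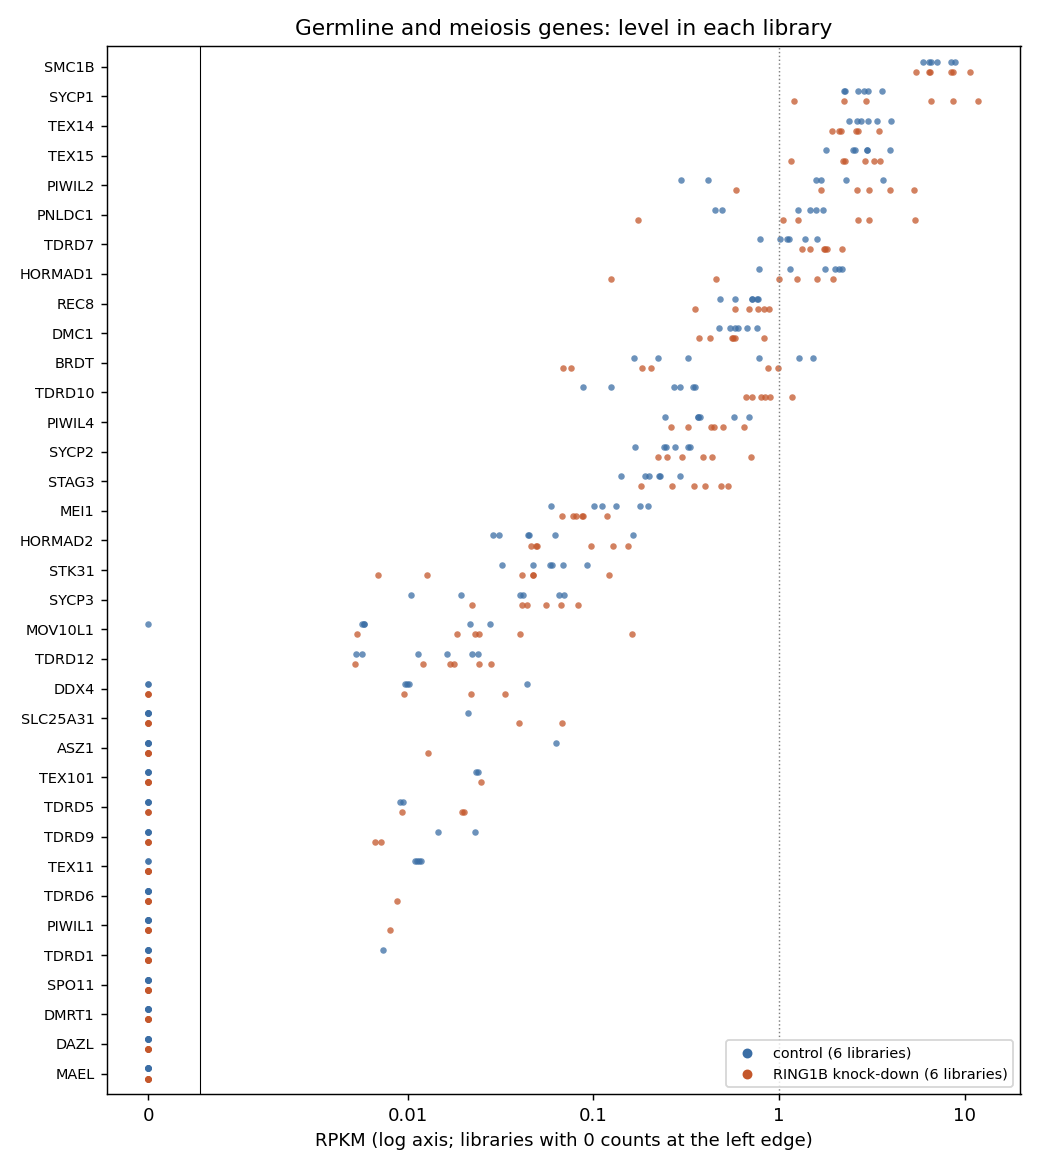
RPKM of each of the 35 germ line genes in every library (log axis, libraries with 0 counts at the left edge), ordered by mean level, with 6 control and 6 knock-down libraries in different colours and a dotted line at 1 RPKM. SMC1B is highest at a mean of 7.47 RPKM, and MAEL, DAZL, SPO11 and DMRT1 are at 0 in all 12 libraries.

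The untested genes had few reads in both groups. The 19 genes that were not tested summed to 16 to 36 counts per control library and 17 to 48 counts per knock-down library, so the groups overlapped. DDX4, the VASA helicase that marks germ cells, had at most 4 counts in any library. SYCP3, an axis protein of the synaptonemal complex, totalled 24 counts over the controls and 30 over the knock-down libraries. It shares 566 exon bases with CHPT1 on the other strand, so these counts are uncertain. MOV10L1, a helicase that acts on piRNA precursors, had 26 counts in knock-down replicate 4, or 1.11 CPM, and at most 0.276 CPM in the other 11 libraries. At this depth a difference among these genes below the limit of 3 counts was not detectable.

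TDRD10, a gene for a Tudor domain protein, was the 1 germ line gene called by the test, and it was higher in the knock-down. It lies on chromosome 1 from 154502219 to 154548147 on the plus strand of hg38. Its lowest, median and highest CPM were 0.239, 0.766 and 0.957 in the controls and 1.80, 2.23 and 3.17 in the knock-down libraries. Every knock-down library was above every control library, and the counts behind these values were 6 to 25 in controls and 43 to 87 in knock-down libraries. The means were 0.665 ± 0.306 and 2.30 ± 0.483 CPM (SD, n = 6 each), a log2 fold change of 1.78 (SE 0.320, edgeR adjusted p = 0.0283), or 3.43-fold.

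Over all 16519 genes tested, edgeR called 49 (0.297%), of which 29 were higher (0.176%) and 20 lower (0.121%), and 202 genes (1.22%) had groups that did not overlap. TDRD10 was thus 1 of 16 tested germ line genes in either count. DESeq2 and limma-voom, which called 1.79% and 0.339% of the genes they tested, also each called TDRD10 and no other germ line gene. Without knock-down replicate 4 the log2 fold change was 1.79 (edgeR adjusted p = 0.0319), in a fit that called 0.473% of genes. The call was lost when any 1 of control replicates 1 to 4 or knock-down replicates 1 to 3 was left out, with edgeR adjusted p from 0.0587 to 0.0759, while the log2 fold change stayed between 1.59 and 1.89. It was also lost when the libraries that share a number in their titles were summed (1.76, edgeR adjusted p = 0.0769) and after adding the letter of the title to the model (1.70, edgeR adjusted p = 0.0618).

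**Figure D2:**
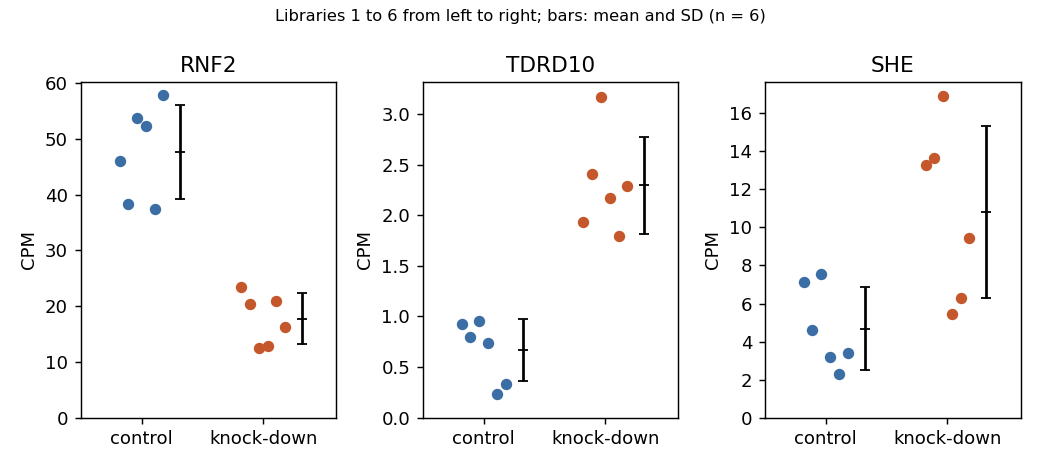
CPM of RNF2, TDRD10 and its neighbour SHE, 1 point for each of the 12 libraries, with the mean and SD of each group of 6 as bars. For TDRD10 the 6 knock-down libraries, from 1.80 to 3.17 CPM, all lie above the controls, which reach 0.957 CPM; for SHE the groups overlap.

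The nearest start to that of TDRD10 is that of SHE, which encodes an SH2 domain adaptor protein and is read in the opposite direction from a point 106 bases away. SHE had its lowest, median and highest CPM at 2.31, 3.99 and 7.54 in the controls and 5.45, 11.4 and 16.9 in the knock-down libraries. The groups overlapped, and the means were 4.69 ± 2.18 and 10.8 ± 4.52 CPM (SD, n = 6 each). The log2 fold change was 1.21 (SE 0.331) and did not pass the test of edgeR (adjusted p = 0.162), while DESeq2 called it (adjusted p = 0.0211). Without knock-down replicate 4 it was 1.34 (edgeR adjusted p = 0.0889). The genes share no exon bases in the annotation.

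The interval between the start sites, shown because both genes are read outward from it, spans 105 bases at chr1:154502114-154502218 on the plus strand (GRCh38.p14). It is 80% GC and holds 16 CpG, in capitals here, and no CACGTG:
TDRD10-SHE interval: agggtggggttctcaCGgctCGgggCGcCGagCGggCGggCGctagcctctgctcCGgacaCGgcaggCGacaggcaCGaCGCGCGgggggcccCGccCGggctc

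Of the 5 piRNA pathway or TDRD genes tested, none but TDRD10 passed the test. As edgeR called 0.297% of all genes, the lack of other calls says little. TDRD7, a Tudor domain protein also used in the lens of the eye, had its lowest, median and highest CPM at 3.41, 4.81 and 6.96 in controls and 5.75, 7.58 and 9.45 in the knock-down, with means of 5.06 ± 1.25 and 7.41 ± 1.29 CPM (SD, n = 6 each). Its groups overlapped, and the log2 fold change of 0.55 (SE 0.186) had an unadjusted p of 0.00977 and an edgeR adjusted p of 0.239. PIWIL2, a PIWI protein, ranged from 1.71 to 20.9 CPM in controls (median 9.43) and from 3.39 to 30.8 CPM in the knock-down (median 16.3). It differed by 0.80 on the log2 scale (SE 0.548, edgeR adjusted p = 0.565), and 0.53 without knock-down replicate 4. PNLDC1, the exonuclease that trims piRNA ends, ranged from 0.994 to 3.82 CPM in controls (median 3.02) and from 0.383 to 11.9 CPM in the knock-down (median 4.35). It differed by 0.96 on the log2 scale (SE 0.564, edgeR adjusted p = 0.503), and by 1.20 (edgeR adjusted p = 0.305) without knock-down replicate 4. PIWIL4, which shares 683 exon bases with FUT4 on the same strand and is therefore uncertain, had a log2 fold change of 0.01 (edgeR adjusted p = 0.996). FUT4 itself was at 12.6 to 16.4 CPM in controls and 8.56 to 10.7 CPM in the knock-down, a log2 fold change of -0.56 (edgeR adjusted p = 0.0511).

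Of the 9 meiosis genes tested none passed the test, which says little where edgeR called 0.297% of all genes. Among these 9, SYCP1 had the largest knock-down spread relative to its mean (74.7%, SD over mean). SYCP1 forms the transverse filaments of the synaptonemal complex, which joins paired chromosomes. It had its lowest, median and highest CPM at 9.75, 12.1 and 15.5 in controls and 5.19, 20.7 and 51.2 in the knock-down. Knock-down replicates 2, 3 and 5 lay above all controls, at 51.2, 28.6 and 37.5 CPM, replicate 1 was within their range, and replicate 6 lay near the lowest control. Replicate 4 was the lowest of all 12 libraries. Its log2 fold change of 1.0 (SE 0.421) had an edgeR adjusted p of 0.342, and without replicate 4 the value was 1.21 (edgeR adjusted p = 0.178). It was 0.44 with the title letter in the model, 0.61 in limma-voom and 0.64 without replicate 2, and the unadjusted p of 0.0309 was then 0.390, 0.200 and 0.121.

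Among cohesin subunits of meiosis, SMC1B averaged above 1 RPKM in both groups, at 7.23 RPKM in controls and 7.71 RPKM in the knock-down. STAG3 and REC8 were low, at 0.291 and 0.677 RPKM over the 12 libraries. SMC1B, the germ line form of SMC1 and the most abundant of the 35 genes per length, ranged from 25.3 to 37.6 CPM in controls (median 29.2) and from 23.2 to 45.6 CPM in the knock-down (median 31.8). Its means were 30.7 ± 4.89 and 32.8 ± 8.21 CPM (SD, n = 6 each), a log2 fold change of 0.09 (SE 0.160, edgeR adjusted p = 0.853). STAG3, the meiotic stromalin, ranged from 1.21 to 2.51 CPM in controls (median 1.82) and from 1.55 to 4.55 CPM in the knock-down (median 3.20). Its log2 fold change was 0.79 (SE 0.267, unadjusted p = 0.00945, edgeR adjusted p = 0.236). STAG3 shares 1606 exon bases with PVRIG on the same strand and 1163 with CASTOR3 on the other, and related copies of it exist elsewhere in the genome, so its counts are uncertain. REC8, the meiotic kleisin, had a log2 fold change of 0.03 (edgeR adjusted p = 0.974).

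The remaining axis and recombination genes differed in both directions, with overlapping groups and no call. Over all genes tested, 1.22% had groups that did not overlap and 0.297% were called. SYCP2, an axis protein, ranged from 1.08 to 2.15 CPM in controls (median 1.69) and from 1.45 to 4.57 CPM in the knock-down (median 2.22), a log2 fold change of 0.54 (SE 0.287, edgeR adjusted p = 0.458). MEI1, needed for meiotic DNA breaks, ranged from 0.319 to 1.06 CPM in controls (median 0.654) and from 0.364 to 0.639 CPM in the knock-down (median 0.450). It differed by -0.59 on the log2 scale (SE 0.300, edgeR adjusted p = 0.435). HORMAD1, an axis protein also expressed in some tumours, ranged from 1.87 to 5.23 CPM in controls and from 0.298 to 4.68 CPM in the knock-down. Its log2 fold change was -0.64 (edgeR adjusted p = 0.587), and -0.41 without knock-down replicate 4. TEX15, a protein of meiotic repair and transposon silencing, had its lowest, median and highest CPM at 21.2, 32.7 and 46.9 in controls and 13.7, 30.8 and 41.6 in the knock-down. It differed by -0.13 on the log2 scale (SE 0.233, edgeR adjusted p = 0.864), and by 0.02 without knock-down replicate 4. DMC1, the meiotic recombinase, had a log2 fold change of -0.13 (edgeR adjusted p = 0.856), and -0.28 without knock-down replicate 4.

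The 2 other germ cell genes tested gave no call, which says little where edgeR called 0.297% of all genes. TEX14, which keeps the bridges between germ cells open, had its lowest, median and highest CPM at 12.7, 15.4 and 21.4 in controls and 10.3, 12.7 and 18.4 in the knock-down, a log2 fold change of -0.29 (SE 0.165, edgeR adjusted p = 0.488). It shares 80 exon bases with AC011195.2 on the same strand and 169 with SEPT4-AS1 on the other, which its counts may be affected by. BRDT, the testis bromodomain protein with an E-box in the stretch printed above, ranged from 0.721 to 6.62 CPM in controls and from 0.298 to 4.27 CPM in the knock-down, a log2 fold change of -0.85 (SE 0.695, edgeR adjusted p = 0.642), and -0.63 without knock-down replicate 4.

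Over the 16 tested genes, 10 log2 fold changes were above 0 and 6 below, with a median of 0.06 beside 0.01 for all genes tested. Of all genes tested, 52.4% were above 0. At an unadjusted p below 0.05 there were 4 germ line genes, TDRD10, STAG3, TDRD7 and SYCP1, all with higher means in the knock-down. Of all genes tested, 12.7% reached that p, 1230 of them higher and 861 lower in the knock-down. Without knock-down replicate 4, 9 of the 16 were above 0, beside 8427 of the 16519 genes, and the median was 0.10.

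**Figure D3:**
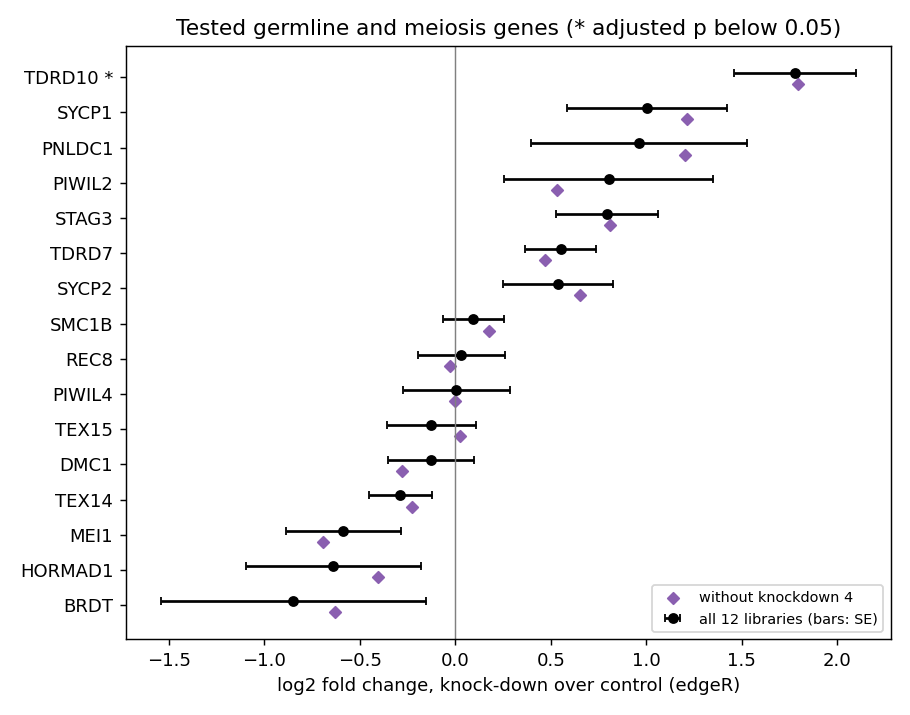
Log2 fold change (knock-down minus control) of the 16 tested germ line genes over all 12 libraries (points, with the standard error as bars) and without knock-down replicate 4 (diamonds). TDRD10 is the only gene of the 16 that edgeR called, at 1.78, and the median over the 16 is 0.06.

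Several of the germ line genes varied between libraries of a group more than most genes did. The coefficient of variation (SD over mean) of BRDT was 81.0% in controls, above 98.0% of all tested genes, and 92.4% in the knock-down without replicate 4, above 99.6% of them. PIWIL2 had 75.1% in controls and 54.5% in the 5 knock-down libraries. Its lowest controls were replicates 1 and 2, at 1.71 and 2.39 CPM, which share a title number. Other pairs with a shared number were not all close. Control replicates 4 and 5 were at 9.14 and 13.2 CPM, and knock-down replicates 5 and 6 at 17.6 and 9.65 CPM. Knock-down replicates 3 and 4 were the lowest and highest of their group for PIWIL2, at 3.39 and 30.8 CPM. PNLDC1 had 47.8% and 64.7%. SYCP1 was at 18.2% in controls, near the middle of all genes, and at 61.9% in the 5 knock-down libraries, above 96.9% of genes. SMC1B was at 15.9% in controls. The median over the 16 genes was 25.1% in controls and 33.0% in the 5 knock-down libraries, beside 18.8% and 20.3% for all tested genes. The sets are not matched for level, and counting alone gives the low genes a spread of up to 24.1% in controls, for TDRD10, and 23.6% for MEI1. Not all of the 16 varied widely: in the 5 knock-down libraries MEI1 was at 10.1% and TDRD7 at 13.1%.

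**Figure D4:**
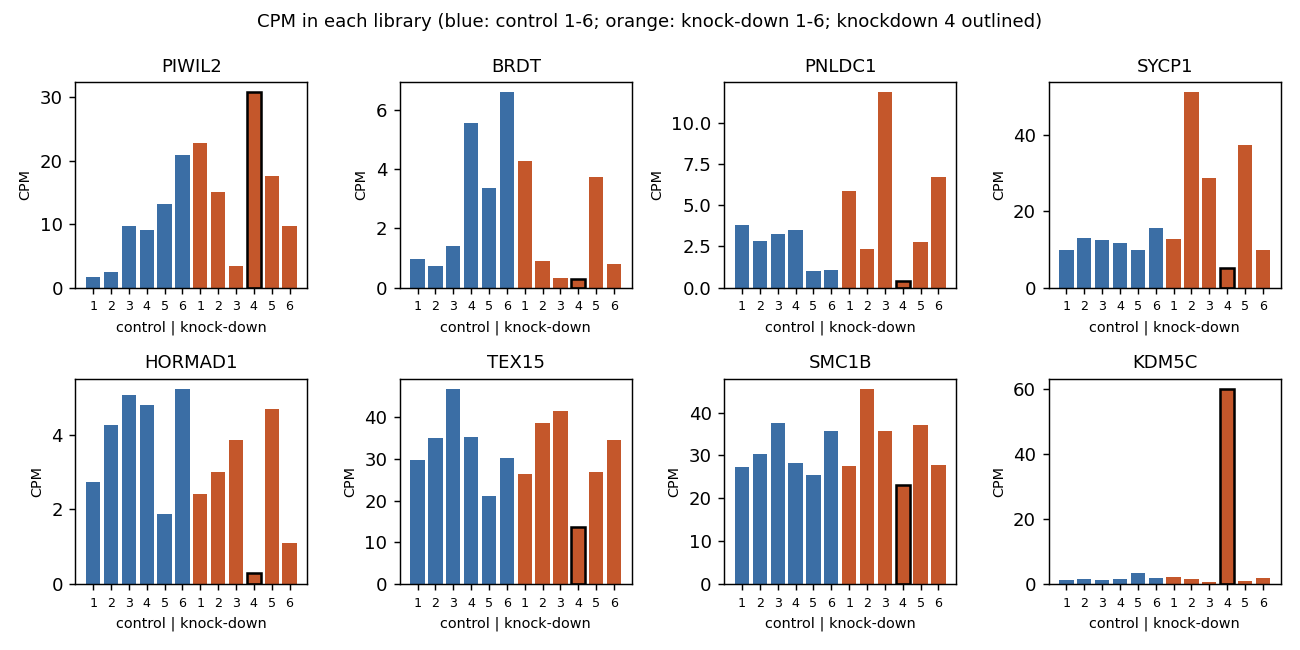
CPM in each of the 12 libraries as bars from 0, for 7 germ line genes and KDM5C, with knock-down replicate 4 outlined. BRDT spans 0.721 to 6.62 CPM among the controls, and knock-down replicate 4 is the highest library for PIWIL2 and KDM5C and the lowest for the other 6 genes shown.

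A wider list of 97 other germ cell and meiosis genes gave no call. Of these, 48 were tested, with 26 log2 fold changes above 0, beside 52.4% of all genes tested. 0 were called by edgeR, DESeq2 or limma-voom, which called 0.297%, 1.79% and 0.339% of the genes they tested. At those shares, 0 calls in a list of this size says little. An unadjusted edgeR p below 0.05 was reached by 13 of the 48, beside 12.7% of all genes tested, with 7 higher and 6 lower in the knock-down. Without knock-down replicate 4, 31 of 50 tested were above 0, beside 8427 of 16519 genes, and 0 were called by edgeR. The 4 with the smallest p were PLD6, a mitochondrial enzyme of piRNA production, at a log2 fold change of 0.55 (SE 0.162, edgeR adjusted p = 0.187), LIN28B, an RNA-binding protein that blocks let-7, at -0.40 (0.204), CPEB1, a translation regulator of oocytes, at 0.84 (0.212), and CYP26B1, which degrades retinoic acid, at -0.35 (0.213), with edgeR adjusted p in parentheses. Counts were 0 in every library for 7 of the 97.

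The factors known to repress germ cell genes showed no call either. Of 31 genes of the PCGF6 complex, DNA methylation and related silencing, 30 were tested. Of these, 11 log2 fold changes were above 0, beside 52.4% of all genes tested. 0 were called by edgeR, DESeq2 or limma-voom, which called 0.297%, 1.79% and 0.339% of all genes they tested, so this 0 also says little. An unadjusted edgeR p below 0.05 was reached by 3 of the 30, beside 12.7% of all genes tested. Without knock-down replicate 4, 13 of 30 log2 fold changes were above 0, beside 8427 of 16519 genes. KDM5C, a histone demethylase, had a log2 fold change of 2.67 (edgeR adjusted p = 0.294) that rested on knock-down replicate 4, at 60.2 CPM against at most 3.38 CPM elsewhere, and was -0.29 without it. The next smallest p were those of ATF7IP at -0.28, TFDP2 at -0.24 and MAX at 0.23 on the log2 scale, with edgeR adjusted p of 0.350, 0.352 and 0.402. Of the complex itself, chosen after their values were seen, PCGF6 had a log2 fold change of 0.12, MGA of -0.15, L3MBTL2 of -0.19 and E2F6 of 0.17.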

How the data were processed

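The authors deposited 1 table of raw counts per gene for 12 libraries of polyadenylated RNA, made with a stranded kit per the labels' protocols. The submitters' processing notes name FastQC, STAR 2.6.0a, hg38, featureCounts, limma 3.40.2 and R 3.6.0. Whether strand was used, how reads with several alignments were handled and whether host reads were removed is not given in the sources used here, so overlapping genes on opposite strands cannot be told apart and host reads may be counted. The exons of all 57169 genes were those of GENCODE release 29. The exon length column gave RPKM, computed here from CPM with edgeR's TMM factors.

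In R 4.3.3, filtering with filterByExpr (edgeR 4.0.16) left 16519 genes. Groups were compared by edgeR's quasi-likelihood F test (robust, no covariate), with Benjamini-Hochberg adjustment over all genes tested and a threshold of 0.05. DESeq2 1.42.0, limma-voom (limma 3.58.1), other filters and scalings, and leaving out each library were alternatives. The 12 libraries carry 8 title numbers, 4 of them on 2 libraries each and none in both groups. Nothing in the labels shows whether libraries come from separate animals, and p-values therefore reflect only the variation among these libraries, which may be technical. Limits from counts cover counting error only.

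Genes named in full were those called, those whose groups did not overlap, the 6 with the smallest p and the 6 with the highest RPKM, and up to 4 from each wider list. FUT4, SYCP3, DDX4, MOV10L1, BRDT, HORMAD1 and the genes of knock-down replicate 4 were added after their values were seen. The genes, lists and tests were chosen with earlier results of these data known. Promoter windows are RefSeq's, on GRCh38.p14.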

Additional observations from a re-analysis of the deposited data

Results flagged for a closer look

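9 values stood far from the rest of their group of 6, by the gap to the nearest value relative to the range. 66 groups (33 genes) were examined, and a rate of 1 in 20 groups would flag 3.3 of 66. That rate does not hold for groups with a count in 1 library only, such as those of ASZ1. KDM5C was examined for its small p, which rested on a library flagged here. The number of flags is therefore not set against that rate.

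Most of these were genes near the limit of detection. ASZ1, a piRNA pathway gene, was at 0.194 CPM in control replicate 4 and 0.0394 CPM in knock-down replicate 6, and at 0 in the other libraries. DDX4 was at 0.167 CPM in control replicate 6, against at most 0.0387 CPM in the other controls. HORMAD2 was at 0.419 CPM in the same library, against at most 0.159 CPM. STK31, a Tudor domain kinase, was at 0.752 CPM in knock-down replicate 1, against at most 0.292 CPM in that group.

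MOV10L1 was at 1.11 CPM and KDM5C at 60.2 CPM in knock-down replicate 4, the library that stood apart, against at most 0.276 and 2.06 CPM in the other knock-down libraries. KDM5C was also at 3.38 CPM in control replicate 5, with the next control at 1.88 CPM. LIN28B was at 30.2 CPM in control replicate 3, with the next control at 21.6 CPM.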

How the results depend on the processing

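There were 21 alternatives, and MEI1 was tested in 20 of them. Of the 16 tested germ line genes, 12 kept the sign of their log2 fold change in every alternative that tested them, 4 changed sign in at least 1, and 15 were never called. The 4 were PIWIL4 (-0.0019 with RLE size factors, -0.00018 with DESeq2, -0.25 with counts summed by title number, and -0.16 to 0.18 when 1 library was left out), TEX15 (0.067 without control replicate 6 and knock-down replicates 4 and 5 together, -0.25 to 0.024 with 1 left out), SMC1B (-0.023 to 0.18 with 1 left out) and REC8 (-0.0067 with limma-voom, -0.0010 with summed counts, -0.026 without the 3 libraries, -0.063 to 0.16 with 1 left out). The cause was not tested. The number of germ line genes called was 0 with summed counts and with the title letter as covariate, and 0 to 1 when 1 library was left out. Over all genes, 346 were called by DESeq2, 7 with summed counts, 28 with the title letter, 108 without the 3 libraries, and 16 to 79 with 1 left out. RNF2 was called in all 21 alternatives, and neither wider list gave a call in any. A filter of at least 1 CPM in 6 libraries left 15 germ line genes. With the 250 bases before the start alone, CACGTG occurred in 31.6%, GCGGGA in 36.8% and GGCGGGAA in 2.63% of windows, beside 6.34%, 23.5% and 2.72% of all windows. No paired analysis was possible because no title number occurs in both groups and replicate numbers follow accession order only.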

Other observations

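Among the cancer-testis genes outside the 35, chosen after their values were seen, PRAME, a gene of testis and many tumours, was at 326 to 418 CPM in controls and 306 to 394 CPM in the knock-down, with a log2 fold change of -0.01 (edgeR adjusted p = 0.981). CTCFL, a testis paralogue of CTCF, was at 174 to 277 CPM in controls and 231 to 358 CPM in the knock-down, with a log2 fold change of 0.42 (edgeR adjusted p = 0.226). MAGEA1 had a log2 fold change of -0.57 (edgeR adjusted p = 0.358). ZCWPW1, a reader of meiotic hotspot marks, was 1 of the 48 tested genes of the wider list, and the only one of them, whose groups did not overlap, where 1.22% of all tested genes had such groups, at 1.19 to 1.55 CPM in controls and 1.70 to 2.13 CPM in the knock-down (log2 fold change 0.45, edgeR adjusted p = 0.327).

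A head-to-head protein-coding neighbour that starts within 1 kb was annotated for 7 of the 35 germ line genes (20%), beside 7.37% of 19889 protein-coding genes. Levels per length were far apart in some pairs and close in others. TDRD9 averaged 0.0043 RPKM while ATP5MPL, which starts 193 bases away, averaged 50.7 RPKM. SMC1B averaged 7.47 RPKM and RIBC2, 72 bases away, 5.91 RPKM. TDRD10 averaged 0.547 RPKM and SHE, 106 bases away, 0.919 RPKM. TEX14 averaged 2.76 RPKM and RAD51C, 518 bases away, 15.7 RPKM. SYCP2 averaged 0.324 RPKM and FAM217B, 109 bases away, 6.27 RPKM. STAG3 averaged 0.291 RPKM and GPC2, 191 bases away, 1.91 RPKM. The log2 fold change of GPC2 was 1.03 (edgeR adjusted p = 0.193), and 0.79 without knock-down replicate 4. Those of FAM217B, RIBC2, RAD51C and ATP5MPL were -0.33, -0.17, -0.06 and 0.08, and edgeR called none of them. SYCP2 and SMC1B, paired with FAM217B and RIBC2, were at 0.54 and 0.09, so the signs differed within these pairs. TEX14, paired with RAD51C, was at -0.29. Whether paired genes differ together was not tested. MAEL and its neighbour ILDR2, 100 bases away, were both at or near 0.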
